A study of Homo sapiens with 12 samples.

Results

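The 10 genes described here encode matricellular and matrix glycoproteins: FN1, THBS1, THBS2, TNC, SPARC, POSTN, VCAN, VTN, MATN2 and FBN1. They were chosen by name, and all 10 were found among the 44357 gene intervals used, of which 19183 are protein-coding. All 10 passed the filter on low counts, and 24944 genes were tested in all. RNA sequencing was done on A172, an established human glioblastoma cell line described as adherent glioma cells of wild-type genotype. 4 libraries came from cells given siRNA-2 against uc.110, 4 from cells given siRNA-1 against uc.110, and 4 from cells given a scrambled control siRNA. uc.110 is an ultraconserved region, part of the genome with identical sequence in human, mouse and rat, and the study asked which genes change when it is knocked down. Every group received the siRNA with a Lipofectamine reagent for 6 h, and RNA was collected on day 2, so the model is 1 cell line in culture. Whether the 4 libraries of a group are separate cultures is not in the labels, so p-values measure the spread between these libraries, which may be technical.

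Fibronectin, vitronectin and fibrillin are building or adhesive proteins of the extracellular matrix, and cells hold on to several of them through integrins. Thrombospondins, tenascin-C, SPARC and periostin are matricellular proteins: they are secreted into the matrix, give it little mechanical strength, and alter how cells attach, migrate and respond to growth factors. Many of these proteins surround vessels or invading cells in glioblastoma, where tenascin-C and versican are long-known components of the tumour matrix.

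The libraries held 42761631 to 52925336 counts over the gene intervals used. The targeted region on chromosome 2, from 236162738 to 236162980 (hg38), held 3, 0, 4 and 0 reads with siRNA-2, 2, 0, 1 and 2 with siRNA-1, and 4, 0, 1 and 6 with the scrambled siRNA, too few to show a difference at this depth. Reads in 45S ribosomal RNA intervals made up 15.01% of siRNA-1 replicate 3 and 8.58% of the siRNA-2 replicate numbered 2, against 1.70% to 5.09% elsewhere. Scrambled replicate 1 had 1556 intervals with reads in no other library, against 86 to 167 such intervals in the rest. These 3 libraries were left out together in an alternative analysis, which changed the side of the threshold of SPARC alone among the 10 genes, with siRNA-1 (adjusted p = 0.224). Of 7 glial and glioma markers, VIM averaged 1952.4 CPM with siRNA-2, 1689.7 with siRNA-1 and 2642.9 with the scrambled siRNA, NES 367.4, 521.2 and 444.4 CPM in that order, CD44 861.4, 593.2 and 697.7, SOX2 14.0, 14.5 and 15.6, GFAP 7.54, 8.50 and 6.29, and OLIG2 9.73, 8.98 and 4.65, while S100B had 1 read in all. CPM are counts per 1000000 of the library size scaled by the trimmed mean of M-values (TMM).

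The stretch before the start of transcription is shown for 3 genes that rose with both siRNAs (THBS2, FN1, VTN) and 2 that fell with both (TNC, VCAN), with the 250 bases upstream of the annotated start from RefSeq (GRCh38.p14). Capitals mark matches, on either strand, to the words searched: a TATA box (TATAAA), a GC box (GGGCGG), an AP-1 site (TGANTCA), a cyclic AMP response element (CRE, TGACGTCA), a TEAD site (GGAATG), a STAT site (TTCNNNGAA), an IRF site (GAAANNGAA) and an E box (CACGTG). Each is written 5′ to 3′ on the strand of the gene.
THBS2: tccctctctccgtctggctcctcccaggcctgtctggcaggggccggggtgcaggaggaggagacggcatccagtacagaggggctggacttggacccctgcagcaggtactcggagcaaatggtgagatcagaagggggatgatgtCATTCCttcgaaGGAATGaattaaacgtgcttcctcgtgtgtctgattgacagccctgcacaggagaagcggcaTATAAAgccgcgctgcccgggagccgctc
FN1: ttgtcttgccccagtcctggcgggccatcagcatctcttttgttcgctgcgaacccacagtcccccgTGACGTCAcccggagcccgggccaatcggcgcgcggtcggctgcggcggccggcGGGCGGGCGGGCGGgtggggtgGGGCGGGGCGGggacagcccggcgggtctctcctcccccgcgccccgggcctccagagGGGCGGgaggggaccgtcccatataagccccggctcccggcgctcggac
VTN: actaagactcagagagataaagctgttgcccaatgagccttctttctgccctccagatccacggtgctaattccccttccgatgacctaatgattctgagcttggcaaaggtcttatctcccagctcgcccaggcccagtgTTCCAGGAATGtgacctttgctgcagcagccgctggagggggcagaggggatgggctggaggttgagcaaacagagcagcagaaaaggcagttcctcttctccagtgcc
TNC: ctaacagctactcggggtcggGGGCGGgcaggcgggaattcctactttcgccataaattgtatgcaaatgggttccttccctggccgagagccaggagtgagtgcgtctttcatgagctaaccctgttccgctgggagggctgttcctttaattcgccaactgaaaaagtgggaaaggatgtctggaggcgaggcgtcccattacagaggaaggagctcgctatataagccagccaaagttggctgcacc
VCAN: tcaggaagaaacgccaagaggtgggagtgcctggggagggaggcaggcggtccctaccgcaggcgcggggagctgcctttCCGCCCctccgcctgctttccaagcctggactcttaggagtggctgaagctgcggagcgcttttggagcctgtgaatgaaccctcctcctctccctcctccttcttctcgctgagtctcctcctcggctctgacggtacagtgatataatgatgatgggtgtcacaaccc
The windows lie at chr6:169253847-169254096 (minus strand) for THBS2, chr2:215436069-215436318 (minus) for FN1, chr17:28370308-28370557 (minus) for VTN, chr9:115118158-115118407 (minus) for TNC and chr5:83471494-83471743 (plus) for VCAN. Those of THBS2, VTN and VCAN lie within the intervals counted for these genes, and those of FN1 and TNC partly do. The GENCODE gene begins upstream of the window for VTN and VCAN, and within it for THBS2, FN1 and TNC.

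THBS2 held a TATA box 29 to 24 bases upstream and a pair of TEAD words, at 103 to 98 and 91 to 86 bases, in opposite orientations. The VTN window held a TEAD word that overlaps a STAT word, and the FN1 window a CRE at 183 to 176 bases, upstream of 6 GC boxes, some of which overlap. TNC and VCAN held 1 GC box each and no other word searched. Promoter windows were at hand for 9 of the 10 genes, all but MATN2, which also rose with both siRNAs. POSTN rose with both siRNAs too, and its window is not shown. It held TATA boxes at 182 to 177 and 29 to 24 bases, an AP-1, a STAT and an IRF word, and no TEAD word. The TEAD word was in 5 of the 9 (SPARC, THBS2, THBS1, FBN1 and VTN), and in 9.52% of the windows of 11706 protein-coding genes. The GC box was in 4 of 9 (63.5% of all windows), the STAT word in 3 (5.55%), the TATA box in 2 (6.29%), the IRF word in 2 (5.48%), the CRE in 1 (2.64%), the AP-1 word in 1, POSTN (4.31%), and the E box in none (8.41%). A match describes letters and not binding, and the TEAD word occurred both in genes that rose and in SPARC, THBS1 and FBN1, whose levels moved little or with 1 siRNA.

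The 10 genes spanned a wide range of levels. Levels per kilobase divide reads over the whole gene span by exon length, so reads in introns and overlapping genes are held in them. Per kilobase of exon, SPARC, which encodes a collagen-binding matricellular protein, had 2168.2 ± 141.6 CPM per kb with siRNA-2, 2265.0 ± 123.0 with siRNA-1 and 2090.6 ± 43.4 with the scrambled siRNA (SD, n = 4 each), which ranked 1, 1 and 2 among 14181 protein-coding genes with an exon length. SPARC alone made up 80.4% to 81.4% of the counts of the 10 genes with siRNA-2, 82.9% to 84.8% with siRNA-1 and 86.9% to 87.8% with the scrambled siRNA. The 3 ranges do not overlap, and the share is lowest with siRNA-2, where the counts of several of the other genes are high.

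THBS2 came next with siRNA-2, at 185.0 ± 4.59 CPM per kb, and had 97.4 ± 6.98 with siRNA-1 and 55.8 ± 2.73 with the scrambled siRNA, which ranked 89 with siRNA-2 and 299 with siRNA-1, against 644 in scrambled cells. FBN1 had 53.9 ± 6.23, 75.2 ± 5.65 and 52.2 ± 3.90 CPM per kb with siRNA-2, siRNA-1 and scrambled siRNA, so the scrambled levels of THBS2 and FBN1 differ by less than the SD of FBN1. The other 7 genes were well below these. In scrambled cells VCAN (5.84 ± 0.570) and FN1 (5.65 ± 0.181 CPM per kb) were neighbours within their spread, followed by THBS1 (4.36 ± 0.336), MATN2 (3.04 ± 0.141), POSTN (2.23 ± 0.285), TNC (0.721 ± 0.0943) and VTN (0.484 ± 0.0849). The order of TNC and VTN was reversed with both siRNAs. With siRNA-2 VTN had 1.03 ± 0.108 CPM per kb and TNC 0.480 ± 0.118. With siRNA-1 VTN had 3.31 ± 0.387 CPM per kb and TNC 0.190 ± 0.0204. VTN was then at the level of POSTN (3.08 ± 0.375) and VCAN (3.03 ± 0.264) within their spread.

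**Figure D1:**
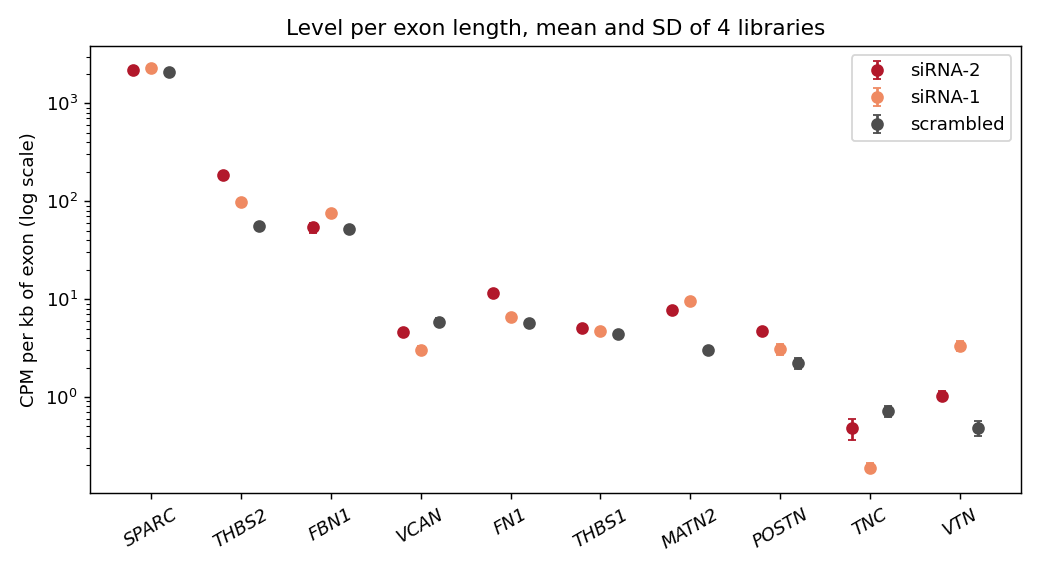
Level of each gene per kilobase of exon on a log axis, as the mean of 4 libraries with the SD as bars, for siRNA-2, siRNA-1 and scrambled siRNA, with genes ordered by their scrambled level. SPARC lies at about the same height in all 3 groups, at 2168.2, 2265.0 and 2090.6 CPM per kb, while VTN lies below TNC in scrambled cells and above it with both siRNAs.

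With siRNA-2, 6 of the 10 genes were higher than with the scrambled siRNA and 2 were lower at an adjusted p under 0.05 (edgeR's quasi-likelihood test, two-sided, Benjamini-Hochberg over all genes tested). Over all genes 56.0% were called in this comparison, 29.9% higher and 26.1% lower, so a call alone says little about the 10 genes. With siRNA-1, 7 were higher and 2 lower, where 53.4% of all genes were called, 28.5% higher and 24.8% lower. Between the siRNAs, 5 were higher and 3 lower with siRNA-2, where 32.5% of all genes were called, 15.7% higher and 16.8% lower. Both comparisons with the scrambled siRNA use the same 4 control libraries.

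In size the changes were uneven, and since the 10 genes were chosen with earlier results of these data known, the values over all genes are given as a description. The median absolute log2 fold change of the 10 genes was 0.80 with siRNA-2, 0.67 with siRNA-1 and 0.60 between the siRNAs, beside 0.31, 0.29 and 0.17 over all genes tested. SPARC and THBS1 lay under the median of all genes in all 3 comparisons, FBN1 with siRNA-2 and FN1 with siRNA-1. A difference of at least 2-fold was seen for 5, 3 and 2 of the 10 genes, beside 9.37%, 8.11% and 2.71% of all genes. All 4 libraries of a group lay on 1 side of all 4 of the other for 7, 8 and 8 of the 10, beside 51.8%, 47.4% and 31.9% of all genes. These are bulk RNA samples, in which fewer cells that express a gene and less RNA per cell cannot be told apart.

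**Figure D2:**
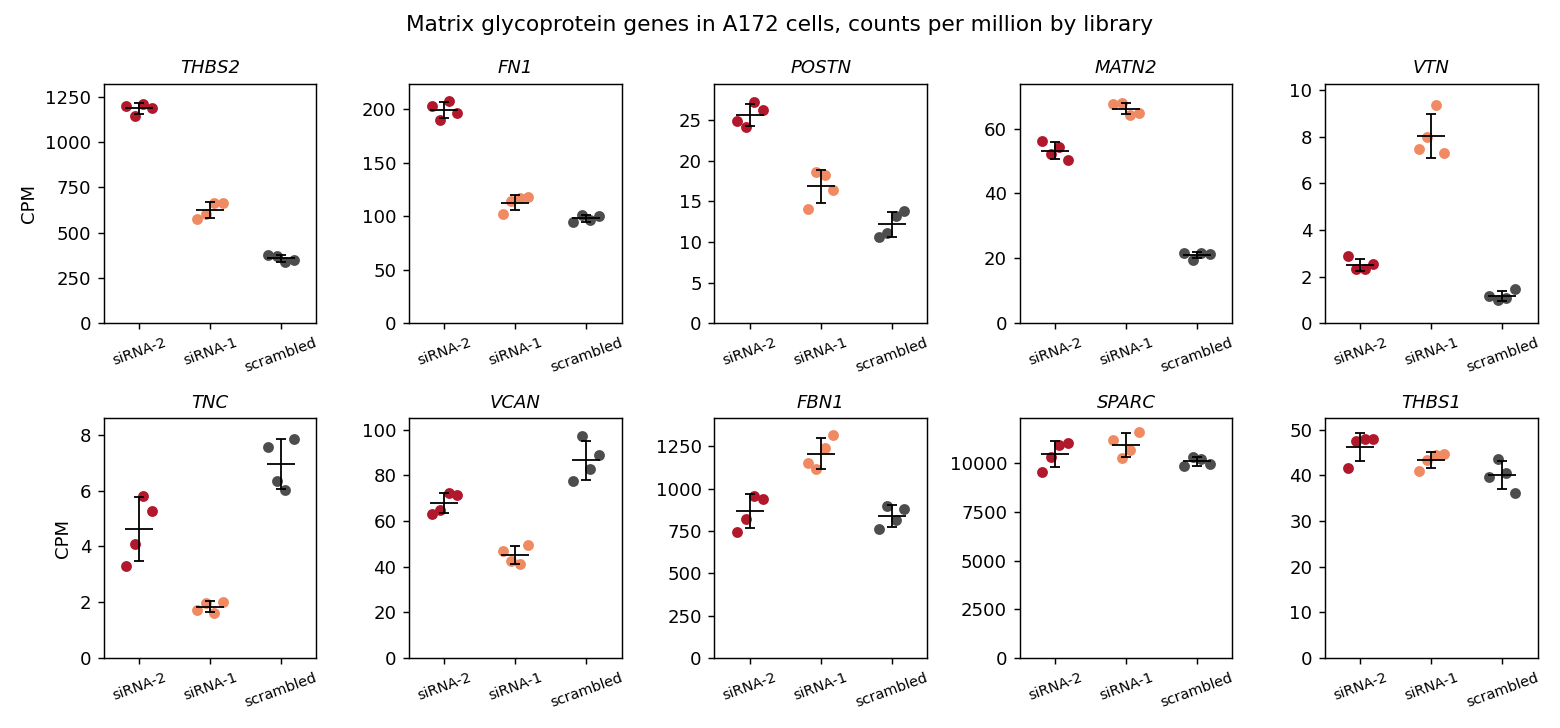
Normalised counts (CPM) in each of the 12 libraries, 1 panel per gene with its own axis from 0; points are libraries of siRNA-2, siRNA-1 and scrambled siRNA, the line is the mean and the bar the SD of 4 libraries. THBS2, FN1 and POSTN step down from siRNA-2 to siRNA-1 to scrambled, MATN2 and VTN are highest with siRNA-1, TNC and VCAN are lowest with siRNA-1, and SPARC and THBS1 overlap between groups, as FBN1 does between siRNA-2 and scrambled.

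**Figure D3:**
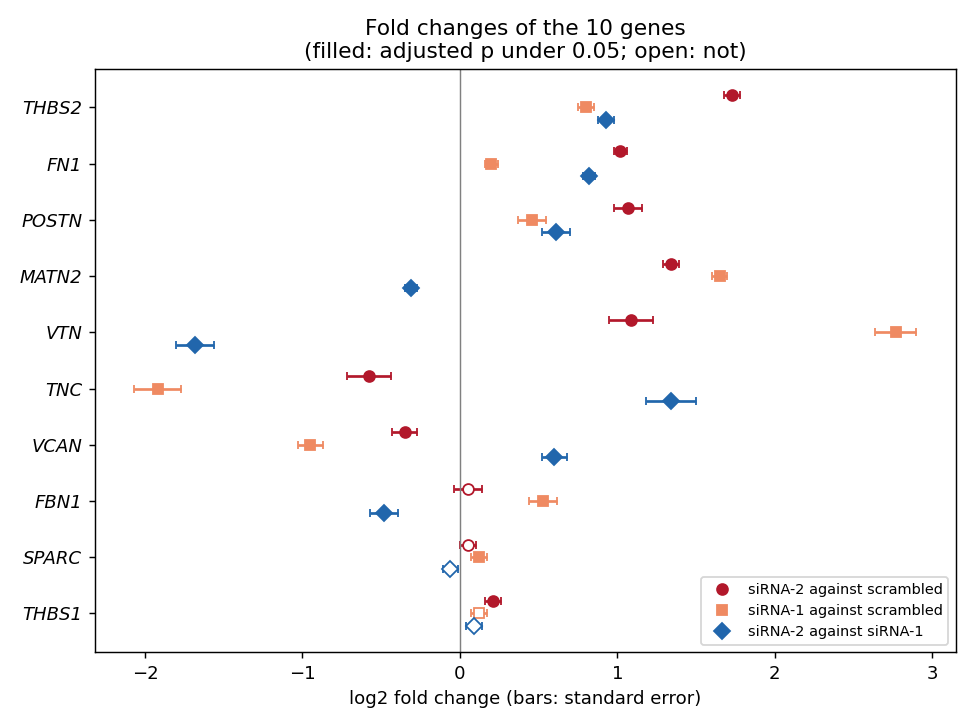
Log2 fold change of each gene in the 3 comparisons, with the standard error (SE) as bars; filled symbols have an adjusted p under 0.05. With siRNA-2 against scrambled, THBS2 lies at 1.73 and TNC at -0.58; with siRNA-1 against scrambled, VTN lies at 2.77 and TNC at -1.92.

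Among the adhesive glycoproteins, FN1 (chromosome 2, 215360441 to 215436167, minus strand, hg38) encodes fibronectin, the main ligand of integrin alpha5 beta1. It had 202.8, 189.4, 207.4 and 196.5 CPM with siRNA-2, 101.8, 113.8, 117.1 and 117.9 CPM with siRNA-1, and 94.3, 101.2, 96.1 and 99.6 CPM with the scrambled siRNA. The siRNA-2 libraries were all far above the rest, and the siRNA-1 libraries lay just above the scrambled ones, with no overlap. FN1 rose by 1.02 on the log2 scale with siRNA-2 (SE 0.04, adjusted p = 5.01e-16) and by 0.20 with siRNA-1 (SE 0.04, adjusted p = 0.000295), and was higher by 0.82 with siRNA-2 than with siRNA-1 (SE 0.04, adjusted p = 2.53e-13). An unnamed locus on the opposite strand, LOC112268430, lies inside FN1 and held reads equal to 11.0%, 10.9% and 10.8% of the FN1 count with siRNA-2, siRNA-1 and scrambled siRNA. The strand setting of the counting is not stated, and overlapping intervals share reads on either strand, so reads in such overlaps were not assigned to 1 of the genes.

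VTN encodes vitronectin, an adhesive glycoprotein of plasma and matrix that binds integrin alphav beta3. Its interval runs on chromosome 17 from 28364221 to 28371283 (minus strand), while the GENCODE gene runs from 28367276 to 28373091, so the deposited interval misses one end. Counts were low: 123, 123, 118 and 131 with siRNA-2, 336, 381, 400 and 347 with siRNA-1, and 52, 46, 53 and 69 with the scrambled siRNA. The 3 groups did not overlap, with siRNA-1 highest and scrambled lowest. In CPM this was 2.51 ± 0.261 with siRNA-2, 8.04 ± 0.939 with siRNA-1 and 1.18 ± 0.206 with the scrambled siRNA (SD, n = 4 each). VTN rose by 1.09 with siRNA-2 (SE 0.14, adjusted p = 2.23e-07) and by 2.77 with siRNA-1 (SE 0.13, adjusted p = 4.20e-15), the highest fold change of the 10 genes, and differed by -1.68 between siRNA-2 and siRNA-1 (SE 0.12, adjusted p = 5.94e-11).

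The interval of SEBOX, a homeobox gene, overlaps that of VTN outside the VTN exons and held 2 to 15 reads with siRNA-2, 10 to 32 with siRNA-1 and 13 to 23 with the scrambled siRNA. SEBOX runs from 28363506 to 28365199, and only 979 of its bases lie in the VTN interval. Its whole count was taken off, including any reads outside VTN. VTN then kept 112 to 120 reads with siRNA-2, 315 to 390 with siRNA-1 and 23 to 46 with the scrambled siRNA. The log2 fold changes were then 1.57 with siRNA-2 (SE 0.17) and 3.26 with siRNA-1 (SE 0.16), further from 0 than before. Too many reads are taken off where SEBOX reads lie outside VTN. How far that moved the fold changes was not tested.

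The thrombospondins differed from each other. THBS2 (chromosome 6, 169213980 to 169257084, minus strand) encodes thrombospondin-2, a trimeric matricellular protein that inhibits angiogenesis and clears matrix proteases through LRP1. It had 1201.3, 1143.9, 1209.9 and 1190.6 CPM with siRNA-2, 572.7, 602.1, 663.4 and 660.7 CPM with siRNA-1, and 373.9, 369.8, 336.1 and 350.9 CPM with the scrambled siRNA. No libraries of different groups overlapped, and the steps between groups were many times the spread within them. THBS2 rose by 1.73 with siRNA-2 (SE 0.05, adjusted p = 3.09e-19) and by 0.80 with siRNA-1 (SE 0.05, adjusted p = 1.63e-13), and the difference between the siRNAs was 0.93 (SE 0.05, adjusted p = 9.41e-14). This was the gene with the highest fold change of the 10 with siRNA-2.

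Most THBS2 reads fall where another locus, LOC101929523 on the plus strand, overlaps it. That interval held reads equal to 85.1%, 85.7% and 85.1% of the THBS2 count with siRNA-2, siRNA-1 and scrambled siRNA, and it covers 77.6% of the exon bases of THBS2. All reads of LOC101929523, which reaches beyond the THBS2 interval, were taken off. THBS2 then kept 7395 to 9507 reads with siRNA-2, 3629 to 4460 with siRNA-1 and 2378 to 2529 with the scrambled siRNA. The fold changes of these reads were 1.74 with siRNA-2 (SE 0.05) and 0.75 with siRNA-1 (SE 0.05), close to those of the whole interval.

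THBS1 (chromosome 15, 39581079 to 39599466, plus strand) encodes thrombospondin-1, which activates latent TGF-beta and binds CD47 and CD36. It had 41.7, 47.4, 48.0 and 47.9 CPM with siRNA-2, 41.0, 43.3, 44.4 and 44.7 CPM with siRNA-1, and 39.7, 43.5, 40.6 and 36.1 CPM with the scrambled siRNA. The groups overlapped: 3 of the siRNA-2 libraries lay above all others, while siRNA-2 replicate 1 lay within the range of both other groups. THBS1 rose by 0.21 with siRNA-2 (SE 0.05, adjusted p = 0.00186). With siRNA-1 its log2 fold change came to 0.12 (SE 0.05, adjusted p = 0.0753), and this passed the threshold without scrambled replicate 2 (0.16, adjusted p = 0.0192) or without siRNA-1 replicate 1 (0.15, adjusted p = 0.0417). Between siRNA-2 and siRNA-1 the difference was 0.09 (SE 0.05, adjusted p = 0.205), and 0.14 without siRNA-2 replicate 1 (adjusted p = 0.0457).

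TNC (chromosome 9, 115019575 to 115118257, minus strand) encodes tenascin-C, a hexameric glycoprotein that counters adhesion to fibronectin. It held 142, 218, 297 and 270 reads with siRNA-2, 78, 94, 68 and 95 with siRNA-1, and 340, 295, 293 and 370 with the scrambled siRNA, or 4.62 ± 1.13 CPM with siRNA-2, 1.83 ± 0.196 with siRNA-1 and 6.95 ± 0.908 with the scrambled siRNA (SD, n = 4 each). The siRNA-1 libraries were the lowest in CPM. The highest siRNA-2 library, at 5.82 CPM, came close to the lowest scrambled one, at 6.01 CPM, without reaching it. TNC fell, with a log2 fold change of -0.58 with siRNA-2 (SE 0.14, adjusted p = 0.00128) and of -1.92 with siRNA-1 (SE 0.15, adjusted p = 1.01e-09). It was higher with siRNA-2 than with siRNA-1 by 1.34 (SE 0.16, adjusted p = 1.05e-06). TNC had the most uneven libraries of the 10 genes with siRNA-2, with a coefficient of variation of 24.5%, and no other interval under 1 Mb overlapped it.

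POSTN (chromosome 13, 37562380 to 37598844, minus strand) encodes periostin, a fasciclin-domain protein that links tenascin-C and fibronectin to collagen. It had 24.9, 24.1, 27.3 and 26.3 CPM with siRNA-2, 14.1, 18.6, 18.2 and 16.5 CPM with siRNA-1, and 10.6, 11.1, 13.2 and 13.8 CPM with the scrambled siRNA. The 3 groups did not overlap, though siRNA-1 replicate 1 lay just above the highest scrambled library. POSTN rose by 1.07 with siRNA-2 (SE 0.09, adjusted p = 2.30e-08) and by 0.46 with siRNA-1 (SE 0.09, adjusted p = 0.000426), and differed by 0.61 between siRNA-2 and siRNA-1 (SE 0.09, adjusted p = 4.97e-05).

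SPARC (chromosome 5, 151661096 to 151687054, minus strand) had the highest mean CPM in every group among the 15017 protein-coding genes tested. It had 9571.1, 10321.8, 10949.5 and 11055.9 CPM with siRNA-2, 11190.6, 10254.4, 10699.2 and 11624.5 CPM with siRNA-1, and 9886.6, 10338.7, 10206.8 and 9967.1 CPM with the scrambled siRNA. The groups overlapped, and the siRNA-2 libraries spanned both the lowest value of all and some of the highest. Its log2 fold change with siRNA-2 came to 0.05 (SE 0.05, adjusted p = 0.337), and that between siRNA-2 and siRNA-1 to -0.06 (SE 0.05, adjusted p = 0.317). With siRNA-1 SPARC was higher by 0.12 (SE 0.05, adjusted p = 0.0339). That call was lost without scrambled replicate 1 or 4, siRNA-1 replicate 1 or 4, or siRNA-2 replicate 1, with fold changes of 0.08 to 0.11, and also under other scalings and filters.

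VCAN (chromosome 5, 83471372 to 83584693, plus strand) encodes versican, a large proteoglycan that binds hyaluronan and makes the matrix around cells loose and hydrated. It had 63.1, 65.0, 72.2 and 71.4 CPM with siRNA-2, 46.9, 42.4, 41.0 and 49.4 CPM with siRNA-1, and 77.5, 97.2, 82.9 and 88.9 CPM with the scrambled siRNA. The groups did not overlap, with siRNA-1 lowest and siRNA-2 between. VCAN fell, with a log2 fold change of -0.35 with siRNA-2 (SE 0.08, adjusted p = 0.0013) and of -0.95 with siRNA-1 (SE 0.08, adjusted p = 1.58e-07), and was higher with siRNA-2 than with siRNA-1 by 0.60 (SE 0.08, adjusted p = 4.73e-05). The antisense locus VCAN-AS1 lies inside VCAN over 48.8% of its exon bases and held reads equal to 62.2%, 61.0% and 60.4% of the VCAN count with siRNA-2, siRNA-1 and scrambled siRNA. With the reads of VCAN-AS1 and a smaller locus taken off, the log2 fold changes were -0.40 with siRNA-2 (SE 0.09) and -0.95 with siRNA-1 (SE 0.09).

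Of the genes for assembled matrix, MATN2 (chromosome 8, 97869022 to 98036724, plus strand) encodes matrilin-2, an adaptor that forms filaments and links other matrix proteins. It had 56.2, 52.1, 54.2 and 50.3 CPM with siRNA-2, 67.5, 67.9, 64.3 and 65.0 CPM with siRNA-1, and 21.8, 19.6, 21.6 and 21.3 CPM with the scrambled siRNA. The scrambled libraries were far below all others, and the siRNA-1 libraries were all above the siRNA-2 ones. MATN2 rose by 1.34 with siRNA-2 (SE 0.05, adjusted p = 1.58e-17) and by 1.65 with siRNA-1 (SE 0.05, adjusted p = 9.59e-19), with a difference of -0.31 between siRNA-2 and siRNA-1 (SE 0.04, adjusted p = 4.01e-06).

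FBN1 (chromosome 15, 48397553 to 48645788, minus strand) encodes fibrillin-1, the backbone of microfibrils that carry elastin and latent TGF-beta. It had 744.4, 823.1, 956.8 and 938.1 CPM with siRNA-2, 1152.2, 1117.9, 1241.4 and 1319.2 CPM with siRNA-1, and 759.8, 896.4, 815.5 and 880.0 CPM with the scrambled siRNA. The siRNA-1 libraries lay above all others, while those of siRNA-2 and scrambled overlapped. FBN1 rose by 0.53 with siRNA-1 (SE 0.09, adjusted p = 0.000383). With siRNA-2 the log2 fold change was 0.05 (SE 0.09, adjusted p = 0.681), which was -0.01 without scrambled replicate 1 and -0.0038 without siRNA-2 replicate 3. FBN1 differed by -0.48 between siRNA-2 and siRNA-1 (SE 0.09, adjusted p = 0.00157).

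The levels with siRNA-2 and siRNA-1 differed for 8 of the 10 genes by the test of the difference itself. FN1, THBS2 and POSTN were higher with siRNA-2 than with siRNA-1, VTN, MATN2 and FBN1 were lower, and TNC and VCAN, the genes below scrambled with both siRNAs, were higher with siRNA-2. Over the 12 libraries the log2 CPM of TNC and VCAN had a Pearson r of 0.956, THBS2 and POSTN of 0.953, FN1 and THBS2 of 0.953, VCAN and VTN of -0.974, and SPARC and FBN1 of 0.780. These points fall into 3 groups and share libraries, so each r holds the differences between groups, and no test was made.

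Among 12382 other protein-coding genes, the patterns most like each of the 10 by Pearson r over the 12 libraries were as follows, and they carry the same limit. LHX9 was nearest to THBS2 (r = 0.997), with log2 fold changes of 1.47 with siRNA-2 and 0.71 with siRNA-1. TENT5A was nearest to FN1 (r = 0.991, 1.36 with siRNA-2, 0.27 with siRNA-1), ANKRD13A to POSTN (r = 0.990, 0.39 with siRNA-2, 0.18 with siRNA-1) and ANKRD46 to VTN (r = 0.994, 0.48 with siRNA-2, 1.34 with siRNA-1). CHRD, which encodes the BMP antagonist chordin, was nearest to MATN2 (r = 0.996, 1.32 with siRNA-2, 1.60 with siRNA-1). ADD3 was nearest to TNC (r = 0.982, -0.30 with siRNA-2, -0.73 with siRNA-1), and COL6A3, a collagen VI chain, came next (r = 0.981, -0.43 with siRNA-2, -1.03 with siRNA-1). PPM1F was nearest to VCAN (r = 0.989, -0.17 with siRNA-2, -0.55 with siRNA-1) and HSPA5, an endoplasmic reticulum chaperone, to FBN1 (r = 0.967, 0.00 with siRNA-2, 0.11 with siRNA-1). For SPARC and THBS1 the nearest genes, EXT2 and FN3KRP, had lower r, 0.930 and 0.899.

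Of 26 relatives of the 10 genes by protein family 19 were tested: 7 were higher and 7 lower with siRNA-2 (median log2 fold change 0.01), and 9 higher and 6 lower with siRNA-1 (median 0.20), where the median of all genes was 0.01 in both. Beside these counts, 29.9% of all genes were higher and 26.1% lower with siRNA-2, and 28.5% higher and 24.8% lower with siRNA-1. BCAN, which encodes brevican, the brain relative of versican, had 245.9 ± 6.77 CPM with siRNA-2, 154.8 ± 5.25 with siRNA-1 and 291.4 ± 12.3 with the scrambled siRNA, and fell (log2 fold changes -0.24 with siRNA-2 and -0.91 with siRNA-1, SE 0.04 each). TGFBI, the fasciclin-domain relative of POSTN, had 3.31 ± 0.168, 5.98 ± 0.723 and 8.95 ± 0.345 CPM with siRNA-2, siRNA-1 and scrambled siRNA and fell (-1.43 with siRNA-2 and -0.58 with siRNA-1, SE 0.09 each), while POSTN rose. The SPARC relatives SMOC1 and FSTL1 also fell: SMOC1 had fold changes of -0.49 with siRNA-2 and -0.25 with siRNA-1 (SE 0.04 each), and FSTL1, at 1137.1 ± 85.0, 981.5 ± 47.2 and 1425.7 ± 39.9 CPM with siRNA-2, siRNA-1 and scrambled siRNA, of -0.33 with siRNA-2 and -0.54 with siRNA-1 (SE 0.05 each). Each had an adjusted p of at most 1.51e-05.

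Of 28 other matricellular and matrix glycoprotein genes 25 were tested. With siRNA-2, 12 were higher and 4 lower (median 0.38), and with siRNA-1, 12 were higher and 9 lower (median 0.28). Over all genes, the shares higher and lower were 29.9% and 26.1% with siRNA-2 and 28.5% and 24.8% with siRNA-1. NID1, which encodes nidogen-1 of the basement membrane, had 327.8 ± 16.1 CPM with siRNA-2, 299.6 ± 10.4 with siRNA-1 and 131.8 ± 6.00 with the scrambled siRNA, and rose by 1.31 with siRNA-2 and 1.18 with siRNA-1 (SE 0.04 each). FBLN5, an elastic fibre gene, rose by 0.90 with siRNA-2 and 1.33 with siRNA-1 (SE 0.11 each), and AGRN, which encodes the heparan sulfate proteoglycan agrin, by 0.68 with siRNA-2 and 0.54 with siRNA-1 (SE 0.05 each). CCN1, a matricellular ligand of integrins, fell (-0.62 with siRNA-2 and -0.70 with siRNA-1, SE 0.04 each), to 78.4 ± 2.66 CPM with siRNA-2 and 74.0 ± 3.88 with siRNA-1, against 120.5 ± 4.35 with the scrambled siRNA. Each of these had an adjusted p of at most 8.13e-08.

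Of 21 cell-surface receptors of the 10 proteins 18 were tested, with 7 higher and 7 lower with siRNA-2 (median -0.31) and 4 higher and 9 lower with siRNA-1 (median -0.18). All genes tested had 29.9% higher and 26.1% lower with siRNA-2, and 28.5% higher and 24.8% lower with siRNA-1. The subunits of the fibronectin receptor moved apart. ITGA5 had 862.5 ± 25.4 CPM with siRNA-2, 788.7 ± 37.0 with siRNA-1 and 645.5 ± 15.1 with the scrambled siRNA, and rose by 0.42 with siRNA-2 and 0.29 with siRNA-1 (SE 0.04 each). ITGB1, the beta1 chain shared by many integrins, had 717.9 ± 47.1, 773.3 ± 42.2 and 1106.8 ± 56.2 CPM with siRNA-2, siRNA-1 and scrambled siRNA and fell (-0.62 with siRNA-2 and -0.52 with siRNA-1, SE 0.05 each). ITGB8, whose integrin activates latent TGF-beta, fell (-0.89 with siRNA-2 and -1.19 with siRNA-1, SE 0.05 each), as did SDC4, the syndecan that binds fibronectin together with integrins (-0.59 with siRNA-2 and -0.70 with siRNA-1, SE 0.04 each). Adjusted p was at most 4.53e-07 for these 4.

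All 22 genes of matrix assembly, crosslinking and turnover were tested. With siRNA-2, 12 were higher and 2 lower (median 0.27), and with siRNA-1, 11 were higher and 5 lower (median 0.18). The background over all genes was 29.9% higher and 26.1% lower with siRNA-2, and 28.5% higher and 24.8% lower with siRNA-1. The count of 2 lower genes was 4 under other scaling or without siRNA-2 replicate 2. LOX, the lysyl oxidase that crosslinks collagen and elastin, had 85.8 ± 5.26, 74.8 ± 2.97 and 31.7 ± 2.20 CPM with siRNA-2, siRNA-1 and scrambled siRNA and rose by 1.44 with siRNA-2 and 1.24 with siRNA-1 (SE 0.05 each). TGM2, a transglutaminase that crosslinks fibronectin, rose by 0.89 with siRNA-2 and 0.42 with siRNA-1 (SE 0.04 each), and HAPLN1, the link protein that fixes versican to hyaluronan, by 0.69 with siRNA-2 and 0.99 with siRNA-1 (SE 0.05 each), while VCAN itself fell. Adjusted p was at most 1.53e-08 for these 3.

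**Figure D4:**
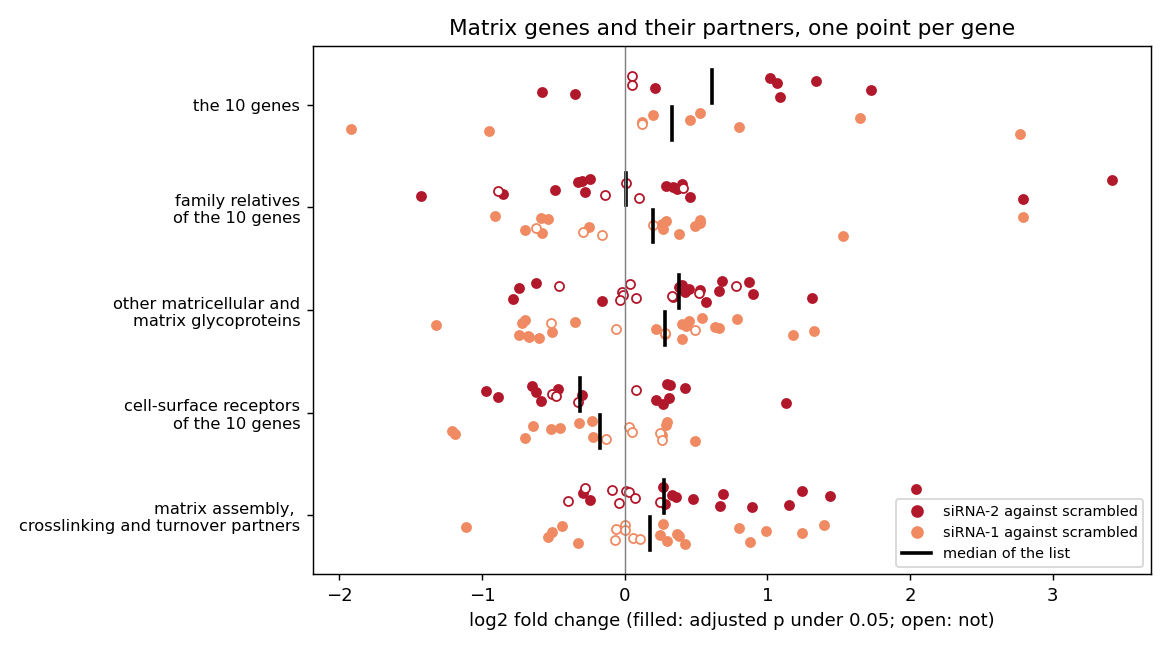
Log2 fold changes with siRNA-2 and siRNA-1 against scrambled for the 10 genes and the 4 lists of related genes, 1 point per tested gene; filled points have an adjusted p under 0.05 and black bars are medians. The points of the 10 genes spread on both sides of 0, from -0.58 to 1.73 with siRNA-2 and from -1.92 to 2.77 with siRNA-1, and the receptor list has its medians, -0.31 and -0.18, below 0.

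Markers of other cell types were looked at because several of the 10 genes are also high in fibroblasts. The 5 fibroblast and smooth muscle markers summed to 2657.5 to 3111.8 CPM with siRNA-2, 2662.8 to 2923.2 with siRNA-1 and 2425.8 to 2653.8 with the scrambled siRNA, and did not all move alike. With siRNA-2, siRNA-1 and scrambled siRNA, COL1A1 had 113.7 ± 3.28, 192.7 ± 19.1 and 55.4 ± 1.41 CPM, COL3A1 2665.7 ± 199.8, 2336.3 ± 101.5 and 2299.7 ± 92.5, PDGFRB 155.7 ± 11.7, 206.9 ± 13.3 and 150.1 ± 4.92, ACTA2 16.7 ± 3.04, 7.46 ± 0.658 and 12.5 ± 0.522, and DES 12.6 ± 1.29, 11.0 ± 1.61 and 6.80 ± 0.740. The 4 endothelial markers summed to 4.19 to 5.85, 5.51 to 8.07 and 4.20 to 6.03 CPM with siRNA-2, siRNA-1 and scrambled siRNA. Of 4 hematopoietic markers 2 had a usable interval: CD68 had 159.1 ± 14.9 CPM with siRNA-2, 73.9 ± 7.43 with siRNA-1 and 38.6 ± 3.15 with the scrambled siRNA, and CD14 1.87 ± 0.342, 1.32 ± 0.267 and 2.09 ± 0.576 CPM in that order. The 4 epithelial markers summed to 1349.4 to 1392.2, 1953.4 to 2052.9 and 933.9 to 1073.6 CPM with siRNA-2, siRNA-1 and scrambled siRNA, nearly all from KRT8 and KRT18, with EPCAM at 0.817, 1.46 and 1.41 CPM and CDH1 at 0.644, 0.564 and 0.242 CPM in that order. None of the markers measured in these 4 lists was at 0 in a whole group, and their part in the changes of the 10 genes was not tested.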

How the data were processed

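The deposited counts, 1 table of whole numbers per interval without normalization, list 49731 intervals, per the file headers, and cover 12 libraries of A172 cells. Per the submitters' processing notes, Salmon and hg38 were used; how reads were counted per interval is not stated. Intervals are whole gene spans of the CHESS and RefSeq annotations, and overlapping intervals share reads on either strand. Left out were 962 ultraconserved and random regions and 4412 gene intervals: 1984 that reach over 100000 bases beyond the gene of that name, 1206 with the same counts as an overlapping interval, 1059 under an older name, and 163 others (rows over 1000000 bases without a match, number names, ribosomal RNA, copies on chromosome Y, longer rows). PTPRC, AIF1 and TNXB were lost this way.

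The test was that of edgeR 4.0.16 (R 4.3.3; limma 3.58.1) with TMM, filterByExpr (minimum count 10, minimum total 15) and 1 robust quasi-likelihood model over the 12 libraries, without covariates beyond the group, adjusted by Benjamini-Hochberg over the 24944 genes tested, threshold 0.05; the fit was tested on simulated data. SE was taken as the size of the log2 fold change over the root of its F statistic. Levels per kb divide CPM by the merged GENCODE v29 exons. The 10 genes and the lists were chosen with earlier results of these data known. The rule names all 10 genes, up to 4 of each list by the smallest p in a comparison with the scrambled siRNA (average log2 CPM at least 1), and the genes with the highest r to each; 1 gene so named is not reported here.

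Alternatives were size factors of DESeq2 in edgeR, DESeq2 1.42.0, no filter, 1 CPM in 4 libraries, a fit of the compared groups alone, a block for the replicate number, protein-coding genes only, the longest row of a gene, and each library left out. Leaving out 3 libraries together and taking off the whole counts of overlapping intervals were added after seeing the data. Python 3.11.15 (pandas 2.3.3, numpy 2.4.6) wrote the tables, and matplotlib 3.10.9 the plots.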

Additional observations from a re-analysis of the deposited data

Results flagged for a closer look

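THBS1 in siRNA-2 replicate 1 stood apart from the other 3 libraries of its group. It had 41.7 CPM. On a log scale its gap to the nearest of them made up 0.914 of the range of the group, above Dixon's critical value for 4 libraries. It was the only one of 30 groups of 4 libraries (10 genes in 3 groups) that passed this value, and chance gives about 5% of groups.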

How the results depend on the processing

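Over 22 alternatives, 642 of 660 fold changes of the 10 genes kept their direction and their side of the threshold. The exceptions concern SPARC, THBS1 and FBN1. SPARC with siRNA-1 against scrambled was no longer called with the size factors of DESeq2 in edgeR (log2 fold change 0.10, adjusted p = 0.0774), with DESeq2 (0.10, 0.0652), with no filter (0.09, 0.0998), with 1 CPM in 4 libraries (0.09, 0.0719), with protein-coding genes only (0.07, 0.158), with only the groups compared (0.10, 0.0654) and with siRNA-1 replicate 3, siRNA-2 replicate 2 and scrambled replicate 1 left out together (0.09, 0.224); the cause was not tested. With single libraries left out it ranged from 0.08 to 0.13. THBS1 ranged from 0.07 to 0.16 with siRNA-1 against scrambled and from 0.07 to 0.14 between the siRNAs, passing the threshold without the libraries named above. FBN1 with siRNA-2 against scrambled, not called in the main analysis, ranged from -0.01 to 0.09 (-0.01 without scrambled replicate 1, -0.0038 without siRNA-2 replicate 3), and was -0.0002 with the 3 libraries left out. Lower genes of matrix assembly, crosslinking and turnover with siRNA-2 numbered 4 in place of 2 with the size factors of DESeq2 in edgeR, protein-coding genes only, only the groups compared and the 3 libraries left out, and 2 to 4 with single libraries left out; lower genes among the other matricellular and matrix glycoproteins numbered 2 to 4, against 4. Counts of the 10 genes called were 8, 8 to 10 and 8 to 9 with single libraries left out, for siRNA-2 against scrambled, siRNA-1 against scrambled, and the siRNAs against each other. Libraries of the same number in different groups had low correlations of their deviations from the group mean (-0.13 to 0.095 over 12 pairs). Libraries of unlike number were not compared, so this does not settle whether the numbers pair the samples. With the replicate block 8, 9 and 8 of the 10 genes were called, as without it, and 13931, 13209 and 8028 of all genes. For siRNA-2 against scrambled, FBN1, POSTN and VCAN had a smaller SE with the block (0.05, 0.07 and 0.07, against 0.09, 0.09 and 0.08). The other genes kept theirs to 2 decimals. VTN and TNC had the lowest counts. Taking off reads of overlapping intervals moved VTN the most, to 1.57 with siRNA-2 and 3.26 with siRNA-1, against 1.09 and 2.77. The whole SEBOX count was taken off there, including any reads outside VTN.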
